A study of Mus musculus with 9 samples.

Results

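The nuclear genes of the mitochondrial respiratory chain and ATP synthase were followed in hematopoietic stem cells (HSCs) of mice bred to delete both copies, 1 copy or no copy of Bcl11a, the gene of a zinc finger repressor. Members were taken by gene symbol: every gene of the array annotation starting with Ndufa, Ndufb, Ndufc, Ndufs, Ndufv, Uqcr, Cox4, Cox5, Cox6, Cox7, Cox8 or Atp5, plus Sdha, Sdhb, Sdhc, Sdhd and Cyc1, without the Ndufaf assembly factors. Only probe sets that name a single gene were used, so 9 genes that match by symbol but share their probe sets with another gene, Cox6c, Ndufb2, Ndufb4, Ndufs6 and Uqcr10 among them, are not members. This gave 82 of 22180 genes, namely 32 for complex I, 4 for complex II, 9 for complex III, 19 for complex IV and 18 for complex V. Of these, 79 passed the filter on dim genes and entered the tests, among 16636 genes tested in all. The remaining 3 were Cox7b2, a paralog of Cox7b, and the pseudogenes Atp5c1-ps and Uqcrh-ps1, which read between 1.48 and 3.18 on the log2 scale on every array. Ndufa4 and Ndufa4l2 were counted with complex IV, because the Ndufa4 protein is a subunit of cytochrome c oxidase. Cox7a2l is caught by its name but is known as a factor that joins complexes III and IV into supercomplexes.

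The knockout (KO) mice were Bcl11a fl/fl with Mx1-Cre, the heterozygous (Het) mice Bcl11a fl/wt with Mx1-Cre, and the wild-type (WT) mice Bcl11a fl/fl without Mx1-Cre. Mx1-Cre is a recombinase transgene under an interferon-responsive promoter, and all 3 genotypes received 5 doses of poly(I:C), which induces interferon. WT mice therefore differed from the others in Cre as well as in Bcl11a, and Het mice also carried an unfloxed allele. Mice were 6 to 8 months old, and each genotype had 3 biological replicates with 1 array each. Cells were enriched for CD117 and sorted as lineage-negative, Sca-1+ and Kit+ cells lacking CD48 and Flt3 and carrying CD150, either YFP+ or YFP-. The sources used here do not tie either YFP gate to a given array.

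Electrons from NADH enter the chain at complex I and those from succinate at complex II. They pass through ubiquinone to complex III, then through cytochrome c to complex IV, where oxygen is reduced. Complexes I, III and IV pump protons, and complex V, the ATP synthase, uses the proton gradient to make ATP. Most subunits are encoded in the nucleus and a small set of core subunits in mitochondrial DNA. Quiescent HSCs are known for relying largely on glycolysis, with oxidative phosphorylation engaged when they leave quiescence and differentiate.

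Values are log2 expression per probe set, on which a difference of 1 is a 2-fold change. Levels are not compared between genes, since each probe set has its own response. The 9 arrays had medians of 3.95 to 4.15, and their interquartile ranges ran from 2.22 to 2.83. Bcl11a read 7.82, 7.90 and 8.66 in KO cells, 8.34, 8.37 and 8.89 in Het cells, and 8.73, 8.81 and 8.38 in WT cells, so the array labelled KO replicate 3 lay inside the WT range. The arrays labelled KO replicate 3, Het replicate 3, WT replicate 1 and WT replicate 3 came from female mice by Xist and Y-linked transcripts, so sex and genotype were not balanced. Kit read 8.75 to 10.01 over all arrays, and Cd48 and Flt3, which the gate excludes, read 3.55 to 5.36. All 5 tested HSC markers (Kit, Slamf1, Procr, Mecom and Hlf) were higher in KO than in WT means without being called, and the list averaged 7.49 to 8.20 on KO arrays, 7.75 to 7.90 on Het arrays and 6.08 to 7.43 on WT arrays. Of 5 tested granulocyte and monocyte markers, all were lower in KO than in WT cells without being called. The whole list of 6, with a gene under the filter, averaged 4.97 to 5.82 on KO arrays. It averaged 5.30 to 6.72 on Het arrays and 6.35 to 6.74 on WT arrays. The part of either list in the values of the respiratory chain was not tested. In samples of this kind, fewer cells of a type and less RNA per cell cannot be told apart.

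No member of the respiratory chain or ATP synthase was called in any comparison at an adjusted p under 0.05 (limma, Benjamini-Hochberg over all genes tested). In KO against WT cells 0 of 79 members were called, where 7 of 16636 genes (0.0421%) were. At an unadjusted p under 0.05, 3 members differed between KO and WT cells (3.8%, against 8.21% of all genes). Of these, 2 were higher in KO cells (5.4% of all genes) and 1 was lower (2.81% of all genes). By sign, 26 members were higher and 51 lower in KO cells, while Cox7a1 and Atp5c1 had equal means and count as neither. A positive difference was found for 32.9% of the members and 45.3% of all genes, and 54.3% of all genes had a negative one. The median member differed by -0.12 and the median gene by -0.04. In Het against WT cells no gene was called (0%), 813 genes (4.89%) and 3 members had an unadjusted p under 0.05, and the median member differed by -0.09. Of the 3, 1 was higher in Het cells (3.12% of all genes) and 2 were lower (1.77% of all genes). By sign 28 members were higher (48.2% of all genes) and 51 lower (51.3% of all genes). In KO against Het cells again no gene was called (0%), 759 genes (4.56%) and 2 members had an unadjusted p under 0.05. Both were lower in KO cells (1.95% of all genes) and 0 were higher (2.61% of all genes). By sign the members split into 38 higher (46.9% of all genes) and 40 lower (52.7% of all genes), with Ndufb5 equal and a median of -0.02. The comparisons of KO and of Het with WT share the WT arrays.

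By complex, the median difference between KO and WT cells was -0.18 for complex I, 0.11 for complex II, -0.15 for complex III, -0.12 for complex IV and -0.05 for complex V. Counts of higher and lower members were 10 and 22 for complex I, 2 and 2 for complex II, 2 and 6 for complex III, 5 and 12 for complex IV, and 7 and 9 for complex V. Over the alternatives tried, leaving out single arrays included, the KO minus WT median ran from -0.24 to -0.01 for complex I, from 0 to 0.34 for complex II, from -0.41 to 0 for complex III, from -0.17 to -0.06 for complex IV and from -0.14 to 0.04 for complex V. In Het against WT cells the medians were -0.04, 0.08, -0.18, -0.10 and -0.13 from complex I to complex V. Over the same alternatives they ran from -0.25 to 0.15 for complex I, from -0.08 to 0.40 for complex II, from -0.29 to -0.16 for complex III, from -0.14 to 0.03 for complex IV and from -0.20 to 0 for complex V. All 8 tested complex III members were at or below their WT mean there, although Uqcrc1, a core subunit, differed by only 0.00 at the printed precision. In KO against Het cells the 5 medians lay between -0.05 and 0.05. Across the alternatives they ran from -0.15 to 0.08 for complex I and from -0.32 to 0.18 for complex II. The ranges were -0.07 to 0.19 for complex III, -0.15 to 0 for complex IV and -0.05 to 0.08 for complex V.

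**Figure D1:**
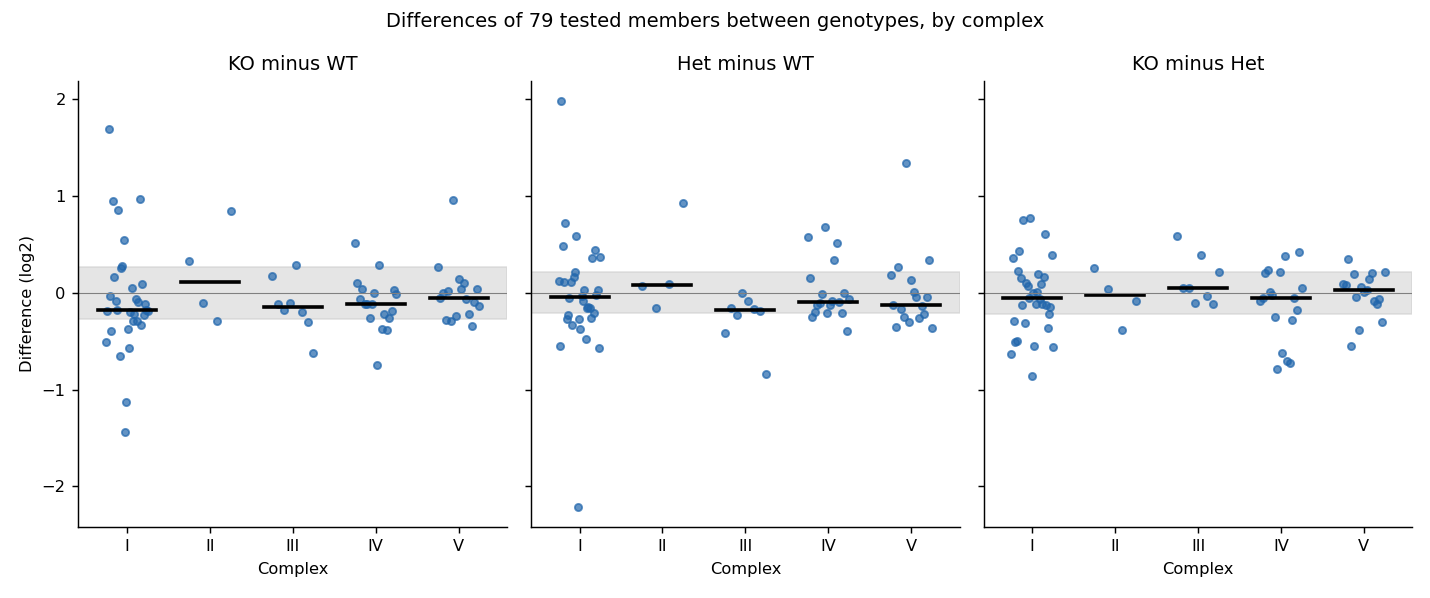
Difference in log2 expression of each of the 79 tested members (points) between KO and WT, Het and WT, and KO and Het cells, by complex on the horizontal axis. The black line is the median of a complex and the grey band the interquartile range of all 16636 genes. The band is -0.27 to 0.27 for KO minus WT, and most members lie inside or near it. Ndufa11 and Ndufb11 are at the extremes in both panels against WT, and Ndufb3 (-0.86) and Ndufb11 (0.77) in KO minus Het.

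The precision of the arrays set what could be seen. The 95% confidence interval of a member's difference reached 0.70 to either side of it in the median. It lay wholly within a 2-fold change in either direction for 47 of 79 members in KO against WT cells, for 49 in Het against WT cells and for 52 in KO against Het cells. For the other members a 2-fold change was not excluded by the interval. Complex V was measured most closely among the larger complexes, with 15 of 17 members inside 2-fold in KO against WT cells, against 12 of 32 for complex I. The standard deviation within genotypes had a median of 0.481 for complex I, 0.656 for the 4 members of complex II, 0.414 for complex III, 0.359 for complex IV and 0.340 for complex V, beside 0.368 for all genes tested. It ran from 0.155 for Ndufc2 to 1.40 for Ndufa11, both accessory subunits of complex I.

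Complex I held the members with the largest single differences, Ndufa11 and Ndufb11. Ndufs4, an accessory subunit whose loss in mice gives a disease like Leigh syndrome, read 9.27, 8.45 and 9.13 in KO cells, 8.15, 8.02 and 8.85 in Het cells, and 7.11, 8.30 and 8.52 in WT cells. Its KO mean of 8.95 ± 0.439 lay above the WT mean of 7.98 ± 0.759 (SD, 3 arrays each), but KO replicate 2 lay inside the WT range. The KO minus WT difference was 0.97 (SE 0.402, 1.96-fold; limma adjusted p = 0.579), and without WT replicate 1 it was 0.54.

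Ndufb11, an X-linked accessory subunit of the membrane arm, read 7.09, 6.20 and 5.60 in KO cells, 4.44, 5.04 and 7.11 in Het cells, and 7.26, 8.67 and 7.28 in WT cells. Every KO and Het array was below every WT array, although Het replicate 3 came close to the lowest of them. The Het minus WT difference was -2.21 (SE 0.670; limma adjusted p = 0.815), with WT 4.62-fold above Het. The KO minus WT difference was -1.44 (SE 0.670, limma adjusted p = 0.616). Without Het replicate 3 the Het minus WT difference was -3.0, and between male arrays alone (2 Het, 1 WT) it was -3.93, against -0.16 between female arrays (1 Het, 2 WT).

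Ndufa11, a membrane-arm subunit, varied most of all members. It read 9.41, 9.02 and 7.38 in KO cells, 8.81, 7.85 and 10.03 in Het cells, and 5.04, 6.92 and 8.79 in WT cells. The 3 genotypes overlapped, and the KO minus WT difference of 1.69 had a 95% interval of -0.30 to 3.67. With each array's interquartile range as a term it was 0.30, and a second, dimmer probe set of the gene gave 0.58. Ndufb3, another accessory subunit, read 7.06, 6.75 and 4.67 in KO cells, 6.83, 7.03 and 7.20 in Het cells, and 8.16, 7.05 and 6.66 in WT cells. Its KO minus WT difference of -1.13 rested on KO replicate 3, without which it was -0.39.

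Core subunits of complex I overlapped between KO and WT cells. Ndufv2, an iron-sulfur subunit next to the flavin, read 9.02, 8.20 and 7.87 in KO cells, 7.91, 7.38 and 8.64 in Het cells, and 8.66, 8.65 and 8.32 in WT cells. The Het minus WT difference was -0.57 (SE 0.372; limma adjusted p = 0.992), -0.27 without Het replicate 2 and -0.90 without Het replicate 3, and the KO minus WT difference was smaller, at -0.18. Ndufv1, which carries the flavin that accepts electrons from NADH, read 7.05, 6.42 and 6.08 in KO cells, 6.66, 6.52 and 6.81 in Het cells, and 6.13, 6.50 and 7.28 in WT cells. The genotypes overlapped fully, with a KO minus WT difference of -0.12 (SE 0.339). Ndufs1, the largest iron-sulfur subunit, read 5.89, 6.11 and 4.88 in KO cells, 5.62, 5.75 and 5.88 in Het cells, and 5.73, 5.81 and 6.20 in WT cells. Its KO minus WT difference was -0.29 (SE 0.320), and without KO replicate 3, the lowest of the 9 arrays, it was 0.09. Ndufs7, which binds the last iron-sulfur cluster before ubiquinone, read 7.27, 7.53 and 7.23 in Het cells, above the 6.55, 6.98 and 7.17 of WT cells, by 0.44 (SE 0.280, adjusted p = 0.992). The remaining complex I members lay between -0.65 for Ndufa8 and 0.95 for Ndufa2 in KO minus WT.

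**Figure D2:**
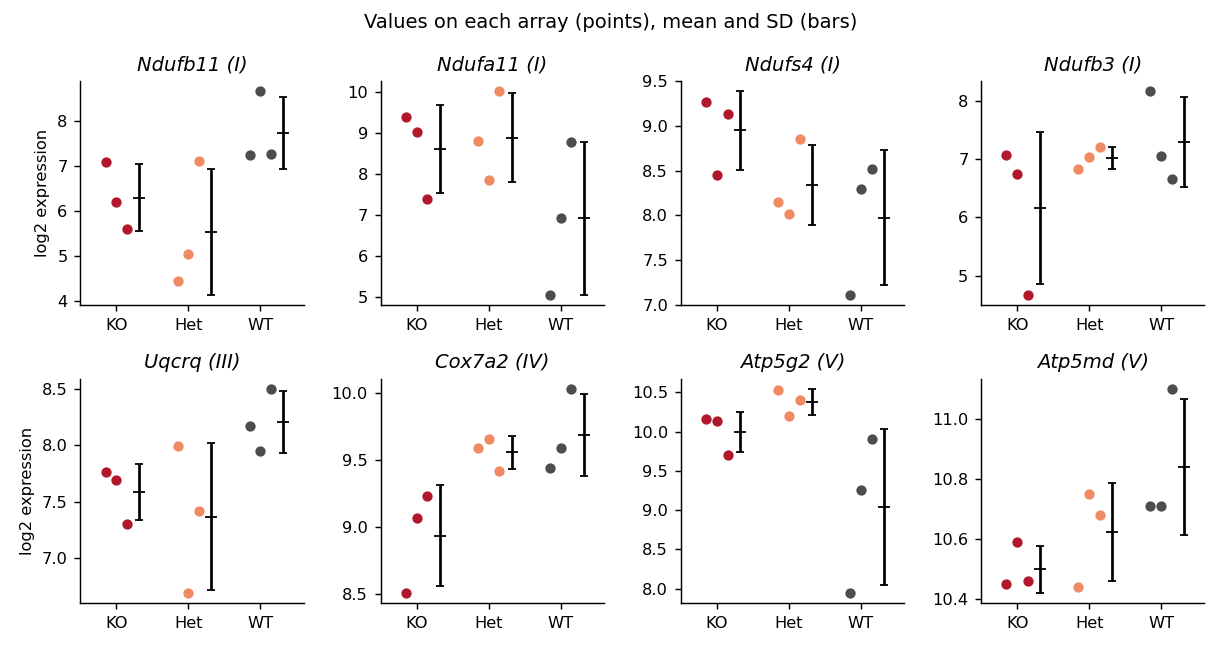
Log2 expression on each array (points) with mean and SD (bars) for 8 members with leading differences, by genotype and with the complex in brackets; each panel has its own vertical range. Ndufb11, Uqcrq, Cox7a2 and Atp5md were lower on all 3 KO arrays than on any WT array, whereas KO and WT arrays overlapped for Ndufa11, Ndufs4, Ndufb3 and Atp5g2.

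In complex II, which belongs to both the citric acid cycle and the chain, Sdha, the flavoprotein that oxidises succinate, read 8.34, 8.20 and 8.55 in KO cells, 8.16, 8.25 and 7.90 in Het cells, and 7.74, 8.37 and 8.00 in WT cells. The KO minus WT difference was 0.33 (SE 0.239, adjusted p = 0.719), and WT replicate 2 lay inside the KO range. Sdhb, the iron-sulfur subunit, differed by -0.11 (SE 0.330). The membrane anchors Sdhc and Sdhd had standard deviations of 0.939 and 1.02 in KO cells and 1.06 and 1.27 in WT cells, larger than their KO minus WT differences of -0.29 and 0.85.

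In complex III, Uqcrq, a small accessory subunit, read 7.76, 7.69 and 7.30 in KO cells, 7.99, 6.69 and 7.42 in Het cells, and 8.17, 7.95 and 8.5 in WT cells. All KO arrays were below all WT arrays, while Het replicate 1 overlapped WT. The difference was -0.62 for KO minus WT (SE 0.330, adjusted p = 0.648) and -0.84 for Het minus WT (SE 0.330, limma adjusted p = 0.970). With any 1 array left out the Het minus WT difference ran from -1.15 to -0.50, and was -0.50 without Het replicate 2. Cyc1, the cytochrome c1 that hands electrons to cytochrome c, read 7.16, 7.74 and 8.66 in KO cells, 7.79, 6.62 and 7.38 in Het cells, and 7.40, 7.49 and 8.15 in WT cells, and its genotypes overlapped. Uqcrfs1, the Rieske iron-sulfur protein, differed by -0.20 (SE 0.360) between KO and WT cells, and the core proteins Uqcrc1 and Uqcrc2 by -0.11 and 0.29. The small subunits Uqcrh, Uqcrb and Uqcr11 differed by -0.30, -0.18 and -0.12.

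In complex IV, Cox7a2, the widely expressed form of subunit VIIa, had the smallest p of all members in KO against WT cells. It read 8.51, 9.07 and 9.23 in KO cells, 9.59, 9.66 and 9.42 in Het cells, and 9.44, 9.59 and 10.03 in WT cells. All 3 KO arrays were below every Het and every WT array, and Het and WT overlapped. The KO minus WT difference was -0.75 (SE 0.262; limma adjusted p = 0.542), with WT 1.68-fold above KO and a 95% interval of -1.33 to -0.17. The KO minus Het difference was -0.62 (SE 0.262; limma adjusted p = 0.998). The KO minus WT difference lay between -0.90 and -0.54 when any 1 array was left out, and was -0.50 between female arrays (1 KO, 2 WT) and -0.80 between male arrays (2 KO, 1 WT).

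Other complex IV members gave weaker or less even differences. Cox7c, a small structural subunit, read 6.39, 5.94 and 5.72 in KO cells, 6.06, 7.18 and 7.0 in Het cells, and 6.46, 5.96 and 6.29 in WT cells. The KO minus Het difference was -0.73 (SE 0.326; limma adjusted p = 0.998), with Het replicate 1 inside the KO range. The X-linked Cox7b read 9.63, 9.71 and 9.79 in KO cells, 9.91, 11.26 and 10.10 in Het cells, and 10.46, 9.87 and 9.92 in WT cells. Every KO array lay below every Het and WT array, though the lowest Het and WT arrays were close above. The Cox7b difference was -0.37 for KO minus WT (SE 0.346) and -0.71 for KO minus Het (SE 0.346). A second, dimmer probe set gave 0.34 and 0.43, the opposite sign in both. With any 1 array left out the KO minus Het difference ran from -0.97 to -0.29. Cox5a, a nuclear-encoded subunit on the matrix side, differed by -0.06 (SE 0.308). Of the remaining members, Cox5b, Ndufa4 and Ndufa4l2 differed by 0.04, 0.03 and -0.01 between KO and WT cells.

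Complex IV has subunits with tissue-specific forms. The widely expressed Cox4i1 read 9.98, 9.82 and 9.66 in KO cells, 9.89, 9.70 and 10.10 in Het cells, and 8.90, 8.83 and 10.21 in WT cells. WT replicate 3 was the highest of the 9 arrays and the other WT arrays the lowest, and without WT replicate 3 the KO minus WT difference was 0.96 in place of 0.51 (adjusted p = 0.253 without it and 0.711 with it). Cox4i2, the lung form, differed by 0.10 (SE 0.293). The widely expressed Cox6a1 and its heart and muscle counterpart Cox6a2 both differed by -0.12. Cox6b1 differed by -0.26, and Cox6b2, a testis form, by -0.12 with a KO standard deviation of 1.10. Cox8a differed by -0.38 (SE 0.346), and by -0.82 once array width, the interquartile range, entered the fit (adjusted p = 0.543). The muscle forms Cox7a1 and Cox8b and the testis form Cox8c averaged 3.38 to 3.75 in all genotypes, close to the filter at 3.31. The supercomplex factor Cox7a2l differed by 0.29 (SE 0.258) between KO and WT cells, opposite in sign to Cox7a2, and its genotypes overlapped.

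**Figure D3:**
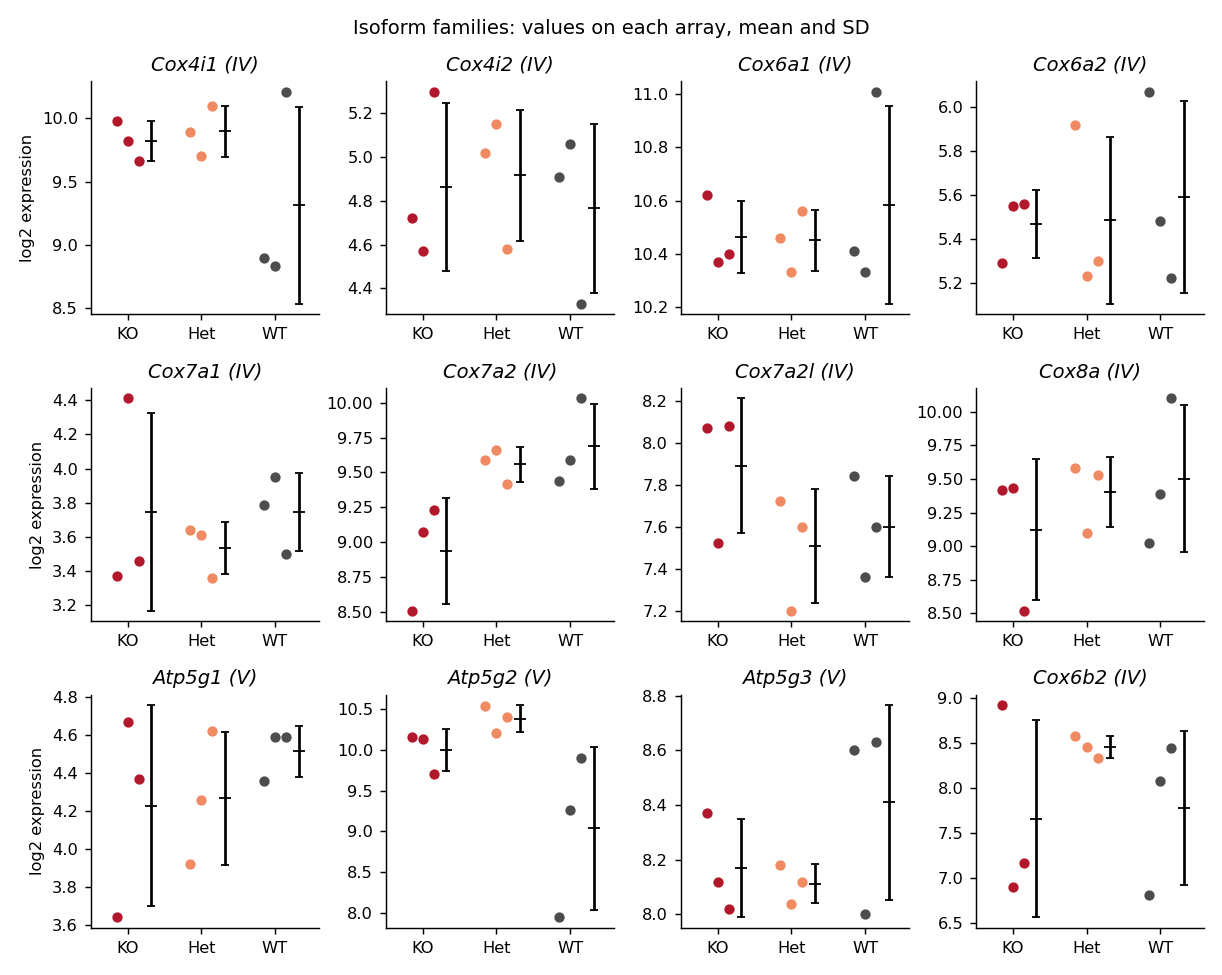
Log2 expression on each array (points) with mean and SD (bars) for 12 members of isoform families of complexes IV and V, by genotype; each panel has its own vertical range. Cox7a2 separates KO from the other genotypes and Atp5g2 separates Het from the other genotypes, while the remaining panels overlap between KO and WT.

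In complex V, 3 genes encode the same mature c subunit of the membrane rotor and differ in the part that is cleaved off. Atp5g2 read 10.16, 10.13 and 9.70 in KO cells, 10.53, 10.20 and 10.40 in Het cells, and 7.95, 9.26 and 9.90 in WT cells. All Het arrays were above all KO and all WT arrays, and KO replicate 3 lay inside the WT range. The Het minus WT difference was 1.34 (SE 0.420; limma adjusted p = 0.866), which is 2.53-fold. The KO minus WT difference was 0.96 (SE 0.420; limma adjusted p = 0.592), which is 1.95-fold. A second probe set of Atp5g2 gave 1.48 for Het minus WT and 0.95 for KO minus WT. WT replicate 1 was the lowest array, and without it the differences were 0.80 for Het minus WT and 0.42 for KO minus WT. The other genes of the family read lower in KO than in WT cells, by -0.29 for Atp5g1 (SE 0.301) and -0.24 for Atp5g3 (SE 0.239).

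The catalytic subunits of complex V differed little. Atp5b, the beta subunit with the catalytic sites, read 9.88, 10.06 and 9.90 in KO cells, 9.89, 9.77 and 9.93 in Het cells, and 9.41, 10.15 and 10.43 in WT cells. KO and Het arrays lay inside the WT range, and the KO minus WT difference was -0.05 (SE 0.272). Atp5a1, the alpha subunit, differed by 0.27 (SE 0.310). Atp5md, a small membrane subunit that stabilises dimers of the enzyme, read 10.45, 10.59 and 10.46 in KO cells, 10.44, 10.75 and 10.68 in Het cells, and 10.71, 10.71 and 11.10 in WT cells. It was lower on every KO array than on any WT array, by -0.34 (SE 0.216, adjusted p = 0.691). The remaining complex V members lay between -0.28 for Atp5d and 0.14 for Atp5h in KO minus WT.

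In Het against WT cells, the 6 members named next had a limma adjusted p of 0.992 each and were not called. Ndufa11 differed by 1.98 between Het and WT cells (SE 0.894), by 1.04 without WT replicate 1 and by 2.92 without WT replicate 3. Ndufa12, an accessory subunit of complex I, read 10.14, 9.69 and 9.46 in KO cells, 10.15, 10.45 and 10.23 in Het cells, and 9.92, 9.22 and 10.24 in WT cells. It differed by 0.48 for Het minus WT (SE 0.300) and by -0.51 for KO minus Het. Cox4i1 differed by 0.58 for Het minus WT (SE 0.351), and by 1.03 without WT replicate 3, while Cox7c differed by 0.51 (SE 0.326). Ndufa4 read 10.61, 10.36 and 10.42 in KO cells, 10.13, 9.57 and 10.43 in Het cells, and 10.52, 10.37 and 10.42 in WT cells. Het replicate 2 was the lowest array, with differences of -0.39 for Het minus WT (SE 0.252) and 0.42 for KO minus Het. Atp5o, a stalk subunit of the ATP synthase, differed by 0.34 for Het minus WT (SE 0.257) and by -0.30 for KO minus Het. The other Het minus WT differences among the smallest p of a complex and direction were 0.93 for Sdhd with an SE of 0.722, 0.07 for Sdha, -0.16 for Sdhb, -0.23 for Uqcrb, -0.25 for Cox5a, -0.26 for Atp5k and -0.30 for Atp5g3.

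In KO against Het cells, the members named next had a limma adjusted p of 0.998 each. Ndufa1, an X-linked accessory subunit of complex I, read 8.89, 8.79 and 7.96 in KO cells, 9.63, 9.01 and 8.88 in Het cells, and 9.31, 8.56 and 9.30 in WT cells. KO and Het arrays overlapped by 1 array, KO replicate 1, and the KO minus Het difference was -0.63 (SE 0.339). Ndufa7, another accessory subunit, read 8.33, 7.91 and 7.22 in KO cells, 7.27, 6.61 and 7.32 in Het cells, and 6.93, 5.99 and 7.96 in WT cells. It differed by 0.75 for KO minus Het (SE 0.473), with KO replicate 3 inside the Het range. Ndufa3 differed by 0.43 (SE 0.254), Cyc1 by 0.59 (SE 0.422), Uqcrc2 by 0.39 (SE 0.274) and Cox7a2l by 0.38 (SE 0.258). The Cyc1 difference was 0.19 without KO replicate 3 and 0.27 without Het replicate 2. In complex V, Atp5d, the delta subunit, differed by -0.55 (SE 0.414), Atp5c1, the gamma subunit of the central shaft, by 0.35 (SE 0.335) and Atp5k by 0.20. Without KO replicate 3 the Atp5d difference was -0.12, and without KO replicate 1 the Atp5c1 difference was 0.01. The differences left in this comparison were 0.26 for Sdha, 0.04 for Sdhb, -0.38 for Sdhc, -0.08 for Sdhd, -0.11 for Uqcrc1 and -0.12 for Uqcrh. For KO minus WT those not given above were 0.17 for Cyc1 and -0.22 for Atp5l, subunit g of the ATP synthase.

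Groups whose arrays did not overlap were few among the members. In KO against WT cells 5 of 79 members were lower on all KO arrays, namely Ndufb11, Uqcrq, Cox7a2, Cox7b and Atp5md, where 7.32% of all genes were. No member was higher on all KO arrays, where 6.51% of all genes were. In Het against WT cells Ndufs7 and Atp5g2 were higher on all Het arrays (4.51% of all genes), and Ndufb11 and Atp5k, subunit e of the ATP synthase, were lower (3.9% of all genes). In KO against Het cells Ndufa12, Cox7a2, Cox7b and Atp5g2 were lower on all KO arrays (5.4% of all genes) and no member was higher (4.42% of all genes). The count of members lower on all KO arrays than on any WT array is near the share of all genes.

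The level of the members differed between arrays of the same genotype. The mean over the tested members was 7.78, 7.66 and 7.46 on the KO arrays, 7.63, 7.58 and 7.80 on the Het arrays, and 7.59, 7.52 and 7.96 on the WT arrays. On WT replicate 3, 62 of 79 members lay above their own mean over the 9 arrays (78.5%, against 45.8% of all genes). On KO replicate 3 and on WT replicate 2, 26 of 79 did so (32.9%, against 50.5% and 54.8% of all genes). WT replicate 3 was the highest array for 22 members, KO replicate 3 the lowest for 17 and Het replicate 2 the lowest for 16. Within WT, complex I had a median deviation of 0.38 on replicate 3, -0.27 on replicate 2 and 0.09 on replicate 1. The interquartile range of the arrays was 2.83, 2.80 and 2.42 for KO, 2.53, 2.39 and 2.77 for Het, and 2.22, 2.47 and 2.69 for WT. With this width in the fit the median member differed by -0.18 between KO and WT cells and the median gene by -0.02, and no member was called.

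The negative median in KO cells depended on single arrays. Without WT replicate 3 the median member differed by 0.01 between KO and WT cells and by 0.02 between Het and WT cells. Without KO replicate 3 the KO minus WT median was -0.02. It was -0.31 between female arrays (1 KO, 2 WT) and 0.13 between male arrays (2 KO, 1 WT), and -0.07 with sex as a term. The Het minus WT median was -0.06 between female arrays (1 Het, 2 WT) and 0.08 between male arrays (2 Het, 1 WT), and the KO minus Het median was -0.25 between female arrays (1 each) and 0.11 between male arrays (2 each). The female KO array is the one labelled KO replicate 3, so its own properties and sex cannot be told apart there.

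**Figure D4:**
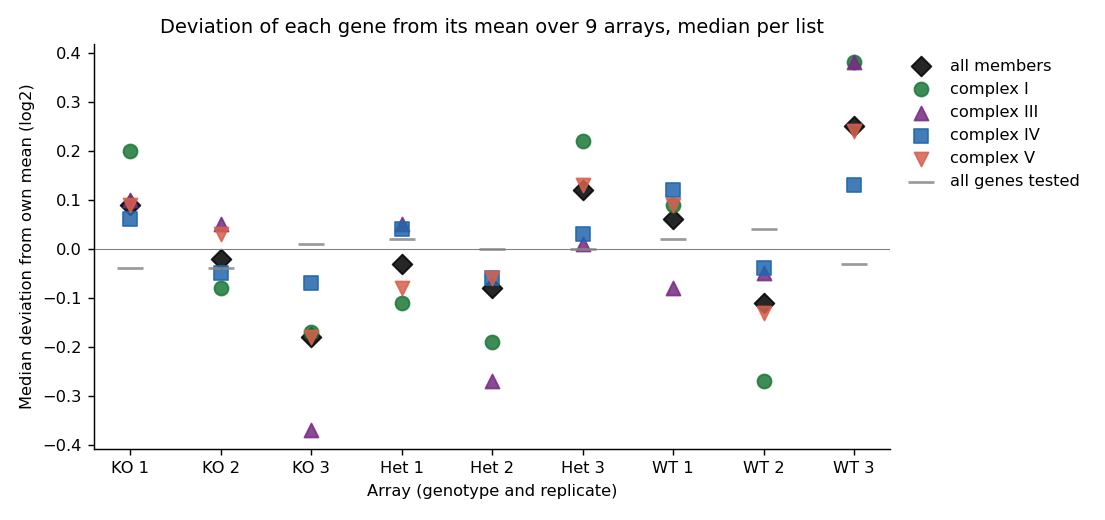
Median over genes of the deviation from each gene's own mean over the 9 arrays, in log2 units, for each array on the horizontal axis, over all members (diamonds), complexes I, III, IV and V and all genes tested (grey lines). All genes stay between -0.04 and 0.04, whereas the members range from -0.18 on KO replicate 3 to 0.25 on WT replicate 3, with WT replicate 2 at -0.11.

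The subunits encoded in mitochondrial DNA, of which 10 were on the array, were steadier. Their mean was 11.86, 11.84 and 11.99 on the KO arrays, 11.79, 12.00 and 11.94 on the Het arrays, and 12.16, 12.05 and 11.82 on the WT arrays. WT replicate 3, the highest array for the nuclear members, was the lowest WT array here. The within-genotype standard deviation had a median of 0.140. All 10 were lower in KO than in WT means (54.3% of all genes), by a median of -0.09. None was called, and none had an unadjusted p under 0.05 (8.21% of all genes). The list mean of WT replicate 3 lay below that of every KO array, so the lower KO means rested on WT replicates 1 and 2. ND3, a core subunit of complex I, read 11.39, 11.39 and 11.54 in Het cells against 11.83, 12.20 and 12.11 in WT cells, a difference of -0.61 (SE 0.206; limma adjusted p = 0.902).

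Genes that build or feed the chain were not called either. Of 44 assembly factors, 21 were higher and 22 lower in KO than in WT cells, and Cox14 was equal, with a median of -0.01. Cox18, which helps to insert a core subunit of complex IV into the inner membrane, read 5.17, 5.55 and 4.24 in KO cells, 6.17, 6.46 and 6.52 in Het cells, and 5.95, 6.28 and 6.27 in WT cells. All KO arrays were below all others, by -1.18 against WT (SE 0.323; limma adjusted p = 0.402) and by -1.40 against Het (limma adjusted p = 0.965). Ndufaf7, an assembly factor of complex I, read 6.37, 5.79 and 5.94 in KO cells, 5.98, 5.22 and 5.97 in Het cells, and 6.91, 7.49 and 6.71 in WT cells. All KO and Het arrays were below WT, by -1.0 for KO (limma adjusted p = 0.456) and -1.31 for Het (limma adjusted p = 0.731). Cox15, needed for heme A synthesis, and Acad9, a complex I assembly factor, were higher in KO than in WT means by 0.90 and 0.89 with adjusted p-values of 0.519 and 0.556 from limma.

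Among 14 genes of electron carriers, 9 were higher and 5 lower in KO than in WT cells (median 0.06). Etfb, a subunit of the flavoprotein that takes electrons from fatty acid oxidation, differed by -0.72 (adjusted p = 0.589), and Coq9, a ubiquinone synthesis factor, by 0.57 (adjusted p = 0.592). Cycs, cytochrome c itself, differed by -0.17. Of 16 genes of the citric acid cycle and pyruvate dehydrogenase, 9 were higher and 7 lower (median 0.08), with 0.64 for Idh3b and -0.34 for the citrate synthase gene Cs. The 71 mitochondrial ribosomal proteins had 36 higher and 34 lower and a median of 0.00, and the 65 cytosolic ribosomal proteins 33 higher and 32 lower and a median of 0.01. For Het minus WT the medians were 0.05 for assembly factors, 0.04 for electron carriers, -0.07 for the citric acid cycle, 0.01 for the mitochondrial and 0.03 for the cytosolic ribosome. For KO minus Het they were 0.04, 0.00, 0.15, -0.04 and 0.01 in the same order. None of these genes was called in any comparison.

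Transcription factors that act on nuclear respiratory genes were measured on the same arrays. Of 13 tested regulators of mitochondrial gene expression, 7 were higher and 6 lower in KO than in WT cells (median 0.00). None was called, and Yy1 and Tfb1m were the ends of the list. Yy1, a zinc finger factor, read 8.45, 8.04 and 8.51 in KO cells, 8.05, 8.35 and 8.04 in Het cells, and 7.43, 7.89 and 7.90 in WT cells. KO and Het arrays were all above WT, by 0.59 for KO (SE 0.240, limma adjusted p = 0.572) and 0.41 for Het (limma adjusted p = 0.992). Of all genes, 6.51% were higher on every KO array than on any WT array, and 4.51% on every Het array. Nuclear respiratory factor 1, Nrf1, differed by 0.16 between KO and WT cells and Gabpa, the DNA-binding subunit of GA-binding protein, by -0.11. Tfam and Tfb1m, which act on mitochondrial DNA transcription and ribosomal RNA, differed by -0.49 (adjusted p = 0.693) and -0.98 (adjusted p = 0.611). The coactivator gene Ppargc1a read 2.54 to 3.14 on all arrays, under the filter.

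Promoters of the members were searched for the letters these factors bind, in RefSeq windows of build GRCm38.p6 from 250 bases before to 50 bases after the gene start. A window was found for 65 of the 82 members. The motif of NRF1, which is GCGCA, any base and GCGC, on either strand, was in 14 of 65 member windows (21.5%) and in 8.36% of 12875 windows of tested genes. The motif CCGGAAG of GA-binding protein and other ETS factors was in 16 (24.6%, against 14.5%), and the motif AAGATGGC of YY1 in 8 (12.3%, against 3.90%). At least 1 of the 3 motifs was in 34 member windows (52.3%) and in 23.9% of those of tested genes, at a median GC content of 57.3% and 59.3%. Over all 27025 windows in the table the shares were 4.78%, 9.12%, 2.88% and 15.2%. The median KO minus WT difference was -0.11 for the 34 tested members with a motif and -0.15 for the 30 tested members without one. By motif, the median KO minus WT difference was -0.07 for the NRF1 motif, with 8 of 14 tested members lower in KO cells, against -0.13 and 34 of 50 without it. For the ETS motif it was -0.16, with 13 of 16 lower, against -0.10 and 29 of 48 without it. Tested members with the YY1 motif had a median of 0.10 for KO minus WT, and 2 of 8 were lower in KO cells, against a median of -0.12 and 40 of 56 lower for those without it. These shares and medians are descriptions, and a match is not evidence that a factor binds.

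The 8 windows with the YY1 motif are shown as 30-base stretches in the direction of the gene, because 7 of them hold it at nearly the same place, starting 22 to 38 bases after the gene start. In Atp5pb the motif lies on the opposite strand and begins 3 bases before the start. Capitals mark the motif, which contains the letters ATG of a start codon. Whether matches in the direction of the gene are where its translation starts was not tested.
Ndufa3 (chr7:3617384-3617413, plus strand): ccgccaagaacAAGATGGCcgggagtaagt
Ndufa9 (chr6:126849097-126849126, minus strand): cattgtgggagAAGATGGCggccgccgtcc
Ndufb8 (chr19:44555393-44555422, minus strand): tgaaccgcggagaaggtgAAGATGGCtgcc
Ndufc1 (chr3:51408915-51408944, minus strand): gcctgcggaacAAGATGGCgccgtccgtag
Ndufs4 (chr13:114388045-114388074, minus strand): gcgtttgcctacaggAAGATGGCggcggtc
Ndufs7 (chr10:80249462-80249491, plus strand): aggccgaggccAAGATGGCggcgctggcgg
Atp5j2 (chr5:145191500-145191529, minus strand): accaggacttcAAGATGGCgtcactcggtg
Atp5pb (chr3:105959248-105959277, minus strand): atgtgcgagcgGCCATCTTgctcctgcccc
The KO minus WT differences of these genes were 0.16 for Ndufa3, 0.26 for Ndufa9, 0.05 for Ndufb8, -0.22 for Ndufc1, 0.97 for Ndufs4, 0.09 for Ndufs7, 0.10 for Atp5j2 and -0.14 for Atp5pb, and none of these genes was called.

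The full windows of 4 members are shown to set the promoters of the leading members in KO against WT cells, Ndufs4, Cox7a2 and Atp5g2, beside that of Sdha, which holds the NRF1 motif at 3 places. Capitals mark matches to any of the 3 motifs. Ndufs4 holds the YY1 motif, Atp5g2 the NRF1 motif 42 bases before the start, and Cox7a2 none of the 3.
Ndufs4 (chr13:114388045-114388344, minus strand): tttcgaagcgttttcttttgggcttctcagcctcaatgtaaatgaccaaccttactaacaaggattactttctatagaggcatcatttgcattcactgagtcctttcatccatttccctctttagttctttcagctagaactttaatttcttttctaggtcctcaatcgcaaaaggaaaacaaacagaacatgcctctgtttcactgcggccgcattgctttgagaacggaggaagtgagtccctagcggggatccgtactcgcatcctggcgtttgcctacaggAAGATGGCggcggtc
Cox7a2 (chr9:79759804-79760103, minus strand): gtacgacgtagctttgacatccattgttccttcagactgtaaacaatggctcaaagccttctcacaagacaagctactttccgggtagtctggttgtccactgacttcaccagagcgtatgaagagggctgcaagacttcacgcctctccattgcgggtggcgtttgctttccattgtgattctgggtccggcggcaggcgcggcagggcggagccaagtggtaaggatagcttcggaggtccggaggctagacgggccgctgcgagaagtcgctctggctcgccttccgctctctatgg
Atp5g2 (chr15:102670998-102671297, minus strand): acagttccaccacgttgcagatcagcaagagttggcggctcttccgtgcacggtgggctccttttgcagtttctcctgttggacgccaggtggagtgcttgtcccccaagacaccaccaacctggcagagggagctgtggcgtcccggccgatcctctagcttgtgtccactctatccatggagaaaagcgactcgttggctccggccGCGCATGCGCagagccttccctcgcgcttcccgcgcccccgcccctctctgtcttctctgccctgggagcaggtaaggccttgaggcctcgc
Sdha (chr13:74350191-74350490, minus strand): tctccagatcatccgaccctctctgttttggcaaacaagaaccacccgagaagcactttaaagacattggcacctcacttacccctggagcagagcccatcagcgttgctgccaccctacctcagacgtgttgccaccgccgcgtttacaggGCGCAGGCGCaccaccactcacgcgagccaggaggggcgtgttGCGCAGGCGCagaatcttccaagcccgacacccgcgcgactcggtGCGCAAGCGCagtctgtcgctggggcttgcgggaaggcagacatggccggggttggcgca
The Sdha motifs begin 98, 55 and 10 bases before the start. Cox7a2, with none of these motifs in its window, and Atp5g2 and Ndufs4, with 1 each, were the members with an unadjusted p under 0.05 between KO and WT cells.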

How the data were processed

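Gene expression was measured on 9 Affymetrix Mouse Gene 2.0 ST arrays from sorted HSCs, 3 each of KO, Het and WT mice; RNA was amplified and biotin-labelled, per the labels' protocols. The deposited values are log2 expression per probe set, which the submitters' processing notes credit to RMA; this method removes background, normalizes the arrays and combines probes, which compresses dim differences. The sources used here name neither its version nor a genome build. The number of arrays limits the precision.

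Of 41345 probe sets, 23521 had 1 symbol, 1814 several and 16010 were not listed. Gene identifiers matched RefSeq for 23328 of the 23521. Each gene was represented by the probe set of 1 symbol with the highest mean over the 9 arrays. Among the members 9 had several such sets. A further 10 probe sets name a gene that matches by symbol together with another gene (Cox6c, Ndufb2, Ndufb4, Ndufs6 and Uqcr10 among them) and were not used. The dimmest genes, below the 25th percentile of means (log2 3.31), were left out of the tests, which kept 16636 of 22180 genes. limma 3.58.1 in R 4.3.3 (lmFit, eBayes; 6 residual and 4.26 prior degrees of freedom) fitted a mean per genotype over all 9 arrays; p-values are two-sided, adjusted by Benjamini-Hochberg over all genes tested, and an adjusted p under 0.05 made a call. With 3 arrays against 3, an exact permutation test cannot go below p = 0.1, so none is given. The fit was tested on simulated data.

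Across probe sets, Pearson's r was 0.862 to 0.932 between arrays of 1 genotype and 0.850 to 0.935 between genotypes, and no arrays were identical. Named in the text are, per complex and comparison, up to 2 members with the smallest p in each direction, core subunits and isoform families, and the leading genes of the companion lists. Members named for not overlapping between groups, for their spread or as the ends of a range were added after their values were seen. The members and lists were chosen with earlier results of these data known. Alternatives changed the filter, the probe sets, the normalization, the covariates, the weights and the arrays used. Promoter windows come from RefSeq; 17 members have none in the table used, and none on chromosome 18 is printed.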

Additional observations from a re-analysis of the deposited data

How the results depend on the processing

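No member was called in any of the 18 alternatives of any comparison; the smallest adjusted p of a member was 0.253 for KO minus WT, 0.351 for Het minus WT and 0.582 for KO minus Het (limma). The median member ran from -0.19 to 0.01 for KO minus WT, from -0.18 to 0.02 for Het minus WT and from -0.08 to 0.06 for KO minus Het, and both positive ends against WT came without WT replicate 3. The count of called genes over the whole array for KO minus WT was 7 as reported, 4 with genes at or above the median level only, 3 after a further quantile normalization, 0 with array width (interquartile range) in the fit, 3 with sex in it, 24 with array weights, 1 with only the 6 arrays compared, and 0 to 15 with 1 array left out, 15 without KO replicate 3. For Het minus WT, 6 probe sets were called when all 41345 probe sets were fitted. These 41345 include the 16010 that were not listed, so the 6 are not a count of genes. The cause was not tested. With the replicate number as a block the KO minus WT count was 0 and no member was called. Deviations of arrays with the same number correlated with r of -0.185 to 0.229, and those with different numbers with r of -0.16 to 0.196. These gave no sign that the numbers pair the arrays, but with 3 arrays per genotype they cannot exclude it. For single named members the sign changed in 30 of 1008 values under other alternatives and in 80 of 1017 with 1 array left out, none of them called. Both totals include values that could not change, such as those without an array of the genotype not compared or with another filter. The shares therefore make the signs look steadier than they were. Differences under about 0.70 in log2 are smaller than the median reach of the intervals to either side. WT mice lacked Cre, so Cre and Bcl11a loss cannot be told apart against WT; the sexes were unbalanced, and the YFP gate of each array is unknown.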
